A study of Mus musculus with 8 samples.

Results

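ChIP-seq (chromatin immunoprecipitation followed by sequencing) mapped PRDM16 in the embryonic mouse cortex at E15.5, and the peaks described here are those assigned to Pdzrn3 and to its paralogue Pdzrn4. A peak was assigned to one of these genes when its summit lay in the gene body, or within 100 kb of the nearer end with no closer protein-coding gene. Of 48145 peaks in the 4 peak lists, 55 were assigned in this way, 29 to Pdzrn3 and 26 to Pdzrn4. Embryos called wild type (WT) were Prdm16 flox/flox with no Cre listed, and conditional knockouts (cKO) were Emx1Ires-Cre; Prdm16flox/flox, so floxed Prdm16 alleles were shared by both genotypes. Cre expressed from the Emx1 locus acts in the dorsal telencephalic lineage and not in every cell of the cortex, and the material was whole cortex lysate, so the lysates also held cells outside that lineage. Each genotype had 2 ChIP libraries, and nothing in the labels says whether replicates came from separate embryos. One library identifier is common to both WT files and another to both cKO files, so genotype and whatever the identifiers mark cannot be told apart.

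PRDM16 belongs to the PR-domain zinc-finger proteins, regulates transcription, and is made by radial glia, which are the stem cells of the developing cortex. Pdzrn3 and Pdzrn4 encode proteins of the LNX family, which combine a RING finger with PDZ domains. The RING finger of such proteins recruits ubiquitin-conjugating enzymes, and PDZ domains hold the C-terminal tails of partner proteins, so a protein of this kind can couple ubiquitination to chosen membrane and signalling proteins. Pdzrn3 is known as a ubiquitin ligase that acts on the MuSK receptor at the neuromuscular junction and in non-canonical Wnt signalling.

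In the WT cortex both genes carried many peaks, and in the cKO cortex almost all of them were absent from the lists. Such absence was common, and the cKO lists were shorter as a whole. Over the genome, 91.5% of 10090 regions found in both WT lists were in neither cKO list. Of the 9488 protein-coding genes with a peak, 35.7% had more peaks in both WT libraries than in both cKO libraries. Pdzrn3 had 9 and 18 peaks in WT replicates 1 and 2 and 1 peak in each cKO replicate. Pdzrn4 had 11 and 14 peaks in the WT replicates, 0 in cKO replicate 1 and 1 in cKO replicate 2. The single Pdzrn3 peak of the cKO lists lay at the promoter, where both WT lists had their strongest Pdzrn3 peak. The single Pdzrn4 peak of the cKO lists overlapped no WT peak.

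The bases before the annotated starts show how different the promoters of these genes are. They are printed because a peak in all 4 lists overlapped the Pdzrn3 promoter, peaks in both WT lists lay at the second Pdzrn4 start, and no list had a peak at the first Pdzrn4 start. Each line gives the 250 bases before the start, 5′ to 3′ on the strand of the gene, from RefSeq (GRCm38.p6, which is mm10): chr6:101377898-101378147 on the minus strand for Pdzrn3, and chr15:92396560-92396809 and chr15:92596859-92597108 on the plus strand for the first and second starts of Pdzrn4. Capitals mark matches to any of the motifs that were searched, which are named further on.
Pdzrn3: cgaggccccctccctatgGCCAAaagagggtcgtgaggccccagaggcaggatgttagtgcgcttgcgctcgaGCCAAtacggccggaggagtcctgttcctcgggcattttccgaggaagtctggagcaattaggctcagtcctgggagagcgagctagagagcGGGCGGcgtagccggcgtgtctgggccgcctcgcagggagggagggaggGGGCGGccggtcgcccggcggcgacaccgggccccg
Pdzrn4, first start: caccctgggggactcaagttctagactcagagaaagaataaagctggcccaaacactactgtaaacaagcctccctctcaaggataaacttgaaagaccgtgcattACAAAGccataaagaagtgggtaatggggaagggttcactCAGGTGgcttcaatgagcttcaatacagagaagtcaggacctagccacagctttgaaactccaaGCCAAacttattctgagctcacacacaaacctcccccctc
Pdzrn4, second start: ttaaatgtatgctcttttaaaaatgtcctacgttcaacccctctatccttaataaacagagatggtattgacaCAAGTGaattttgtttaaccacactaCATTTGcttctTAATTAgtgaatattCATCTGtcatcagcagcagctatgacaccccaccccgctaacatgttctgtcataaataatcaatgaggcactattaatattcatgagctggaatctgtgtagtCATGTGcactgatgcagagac

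The promoter of Pdzrn3 was rich in G, C and CpG, and both promoters of Pdzrn4 were not. G and C made up 69.2% of the Pdzrn3 bases, with 25 CpG and a ratio of observed to predicted CpG of 0.859. The first Pdzrn4 start had 47.2% and 1 CpG, with a ratio of 0.0732. The second had 37.2% and 2 CpG, with a ratio of 0.237. Among 21263 promoter windows of protein-coding genes, 86.4% had a lower G and C content than Pdzrn3, 24.2% a lower one than the first Pdzrn4 start and 6.70% a lower one than the second.

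Pdzrn3 lies on chromosome 6 from 101149607 to 101377897 on the minus strand, a gene body of 228 kb. Its nearest protein-coding neighbours are Ppp4r2, a phosphatase subunit gene 279.7 kb beyond its 3′ end, and Cntn3, a contactin gene 785 kb beyond its 5′ end. Pdzrn4 lies on chromosome 15 from 92396810 to 92771827 on the plus strand, a body of 375 kb. Cntn1, another contactin gene, ends 54.8 kb before it, and Gxylt1, a xylosyltransferase gene, begins 468 kb after it. Distances below run along transcription from the annotated start, and for Pdzrn4 from the first start. Exons and introns were not separated here.

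Both WT libraries had more Pdzrn3 peaks than both cKO libraries. WT libraries averaged 13.5 ± 6.36 peaks and cKO libraries 1 ± 0 (SD, n = 2 per genotype), and the exact two-sided permutation test gave p = 0.333. For Pdzrn4 the means were 12.5 ± 2.12 and 0.5 ± 0.707, and the groups again did not overlap, with an exact two-sided permutation p of 0.333. A value of 0.333 is the smallest that 2 libraries against 2 allow. Of the 9488 protein-coding genes with a peak in at least 1 list, 35.7% had more peaks in both WT libraries than in both cKO libraries. Prdm16 itself, the targeted gene, had 16, 22, 2 and 2 peaks in WT replicates 1 and 2 and cKO replicates 1 and 2, and peak lists do not measure how much PRDM16 protein was left.

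The cKO lists were also shorter, with 4553 and 3088 peaks against 13852 and 26652 in WT. Per 10000 listed peaks, Pdzrn3 held 6.50, 6.75, 2.196 and 3.24 peaks in WT replicates 1 and 2 and cKO replicates 1 and 2. Pdzrn4 held 7.94, 5.25, 0 and 3.24. With each list reduced to its 3088 most significant peaks, Pdzrn3 had 4, 6, 1 and 1, and Pdzrn4 had 2, 2, 0 and 1. Both WT values stayed above both cKO values for each gene, and the difference of the means was 4 for Pdzrn3 in place of 12.5 and 1.5 for Pdzrn4 in place of 12. The share of all genes with such a separation in the shortened lists was not computed, so it cannot be read as particular to these genes. The part of list length in the result was not tested further.

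All 9 Pdzrn3 peaks of WT replicate 1 overlapped a Pdzrn3 peak of WT replicate 2, which gave 9 regions found in both WT lists. Of these, 8 overlapped no peak of either cKO list, and 1, at the promoter, overlapped a peak of both. Over the whole genome 91.5% of the 10090 regions of both WT lists were in neither cKO list, so the share at Pdzrn3 was near the background. For Pdzrn4 all 7 regions of both WT lists were in neither cKO list, beside the same 91.5%. At least 1 such region was found for 16.4% of protein-coding genes and for 72.2% of those with a body of at least 200 kb.

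**Figure D1:**
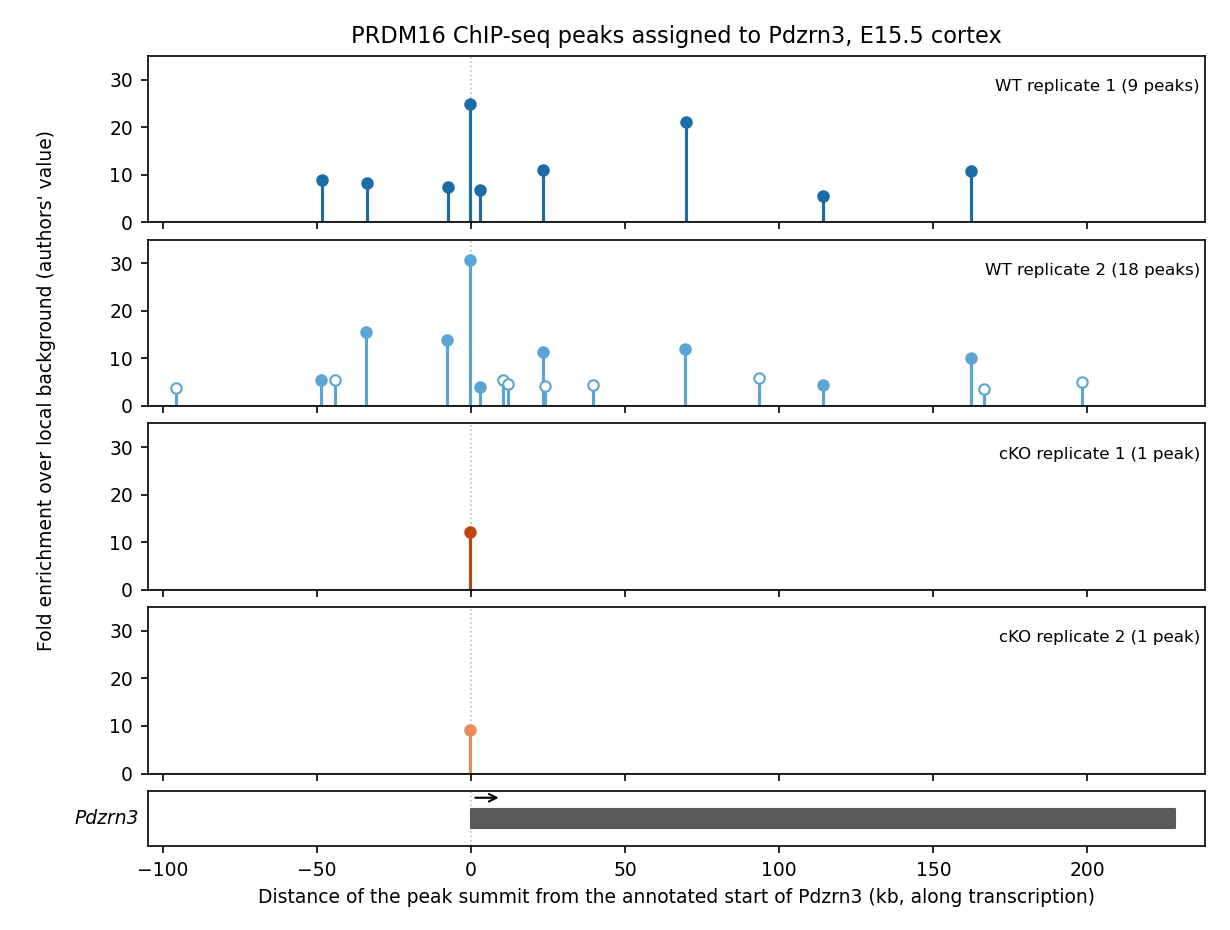
Peaks assigned to Pdzrn3 in each library, by the distance of the summit from the annotated start (kb, horizontal) and the authors' fold enrichment (vertical). Filled points belong to a region found in both WT lists, open points do not, the dotted line and arrow mark the start and the bar marks the gene body. The 9 and 18 WT peaks spread from upstream of the gene to deep inside it, and each cKO list holds 1 peak, at the start.

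At the promoter of Pdzrn3 the 4 lists placed their summits close together. The fold enrichment, which is the fragment pileup at the summit over the local background, was 24.8 and 30.7 in the first and second WT library and 12.2 and 9.25 in the first and second cKO library. The summits lay 217, 241, 244 and 320 bp before the start, in the same order of libraries, so those of both WT libraries and cKO replicate 1 fell within the printed Pdzrn3 sequence and that of cKO replicate 2 just before it. The WT region ran from 101377739 to 101378590, with a mean fold of 27.7 ± 4.22 (SD, n = 2).

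Within each list this promoter peak ranked high. By fold it was number 260 of 13852 in the first WT list and number 153 of 26652 in the other. In the cKO lists it was number 141 of 4553 and number 180 of 3088. Shares of peaks with a lower fold were 98.1%, 99.4%, 96.9% and 94.2%. Lists of different lengths give no measure of change, so these ranks only place the peak within its own list.

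The pileup behind the promoter peak could be solved from the listed values. The pileup at the summit was 52 fragments over a background of 1.14 in the first WT library and 109 over 2.58 in the second. In the cKO libraries it was 55 over 3.58 and 40 over 3.43. The ratio of pileup to background was thus 45.6 and 42.2 in WT and 15.4 and 11.7 in cKO. The WT values lay close together and above both cKO values, at backgrounds that were higher in cKO. The listed fold adds 1 to pileup and background, which lowers it most in the library with the lowest background, WT replicate 1. Fold values of different lists were not used to test a change between genotypes.

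A promoter window with a peak in all 4 lists was uncommon. A promoter window is the 250 bases before and 50 after an annotated start, and 83 of 21263 windows, or 0.39%, had a peak in all 4 lists. Genes that also had at least 1 region of both WT lists in neither cKO list made up 0.131% of 17492 genes with a window. With at least 8 such regions there were 2 genes (0.0114%), Pdzrn3 and Erc2, a presynaptic active zone gene. The limit of 8 was set at the value of Pdzrn3 after that value was seen, so Pdzrn3 met it by construction. The count therefore supports no statement about the gene.

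Upstream of Pdzrn3, 3 regions were found in both WT lists and in neither cKO list. The nearest to the start, from 101384830 to 101385941, had its summit 7.69 kb upstream and was the widest at 1112 bp, with folds of 7.32 and 13.8 in WT replicates 1 and 2. The next, from 101411636 to 101412030 at 33.97 kb, had 8.18 and 15.46. The farthest, from 101426293 to 101426662 at 48.6 kb, had 8.91 and 5.43. The first and second of these were higher in WT replicate 2 and the farthest in WT replicate 1, so their order differed between replicates.

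Inside the Pdzrn3 body 5 further regions were held by both WT lists and by neither cKO list. The highest lay 69.6 kb into the gene, from 101307895 to 101308646, with 21.1 and 12.0 in WT replicates 1 and 2 (mean 16.6 ± 6.43). A region at 23.4 kb, from 101354175 to 101354648, had 11.0 and 11.4, and one at 162 kb, from 101215155 to 101215798, had 10.9 and 10.1. These last values differed little between replicates, with means of 11.2 ± 0.281 and 10.5 ± 0.527. The region at 162 kb also lies in the body of the long noncoding RNA gene Gm26911. The lowest were the region at 2.98 kb, from 101374627 to 101375135, with 6.80 and 4.03, and that at 114 kb, from 101263496 to 101263996, with 5.54 and 4.44.

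Replicate 2 of the WT held 9 more Pdzrn3 peaks that replicate 1 did not. Their folds ran from 3.66 to 5.92 with a median of 4.55, against 4.03 to 30.7 with a median of 11.4 for its 9 peaks in shared regions. Their median was below that of the shared peaks, but the ranges overlapped. The smallest fold that WT replicate 1 could call at its median background was 3.53, a pileup of 6 over 0.985, and all 9 listed folds lay above it. The folds of WT replicate 2 come from higher backgrounds, where the added 1 lowers the listed fold less. By the ratio of pileup to background the 9 peaks ran from 4.59 to 8.54, which reaches below and above the ratio at that limit, 6 over 0.985. The listed folds therefore do not show that WT replicate 1 could have called all 9, and this was not tested. The farthest of them was 95.7 kb upstream, with 3.77, and was the last inside the 100 kb limit; the next peaks beyond it were at 153 kb (6.64) and 154 kb (4.31) from the 3′ and 5′ ends, both in WT replicate 2.

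Summits of the WT replicates agreed closely at Pdzrn3. The distance between them ran from 13 to 115 bp with a median of 33 bp over the 9 regions, and for Pdzrn4 it ran from 7 to 252 bp with a median of 122 bp over 7. Over all 10090 regions the median was 56 bp. Regions of Pdzrn3 spanned 211 kb with a median gap of 23.3 kb, and those of Pdzrn4 spanned 423 kb with a median gap of 68.7 kb.

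**Figure D2:**
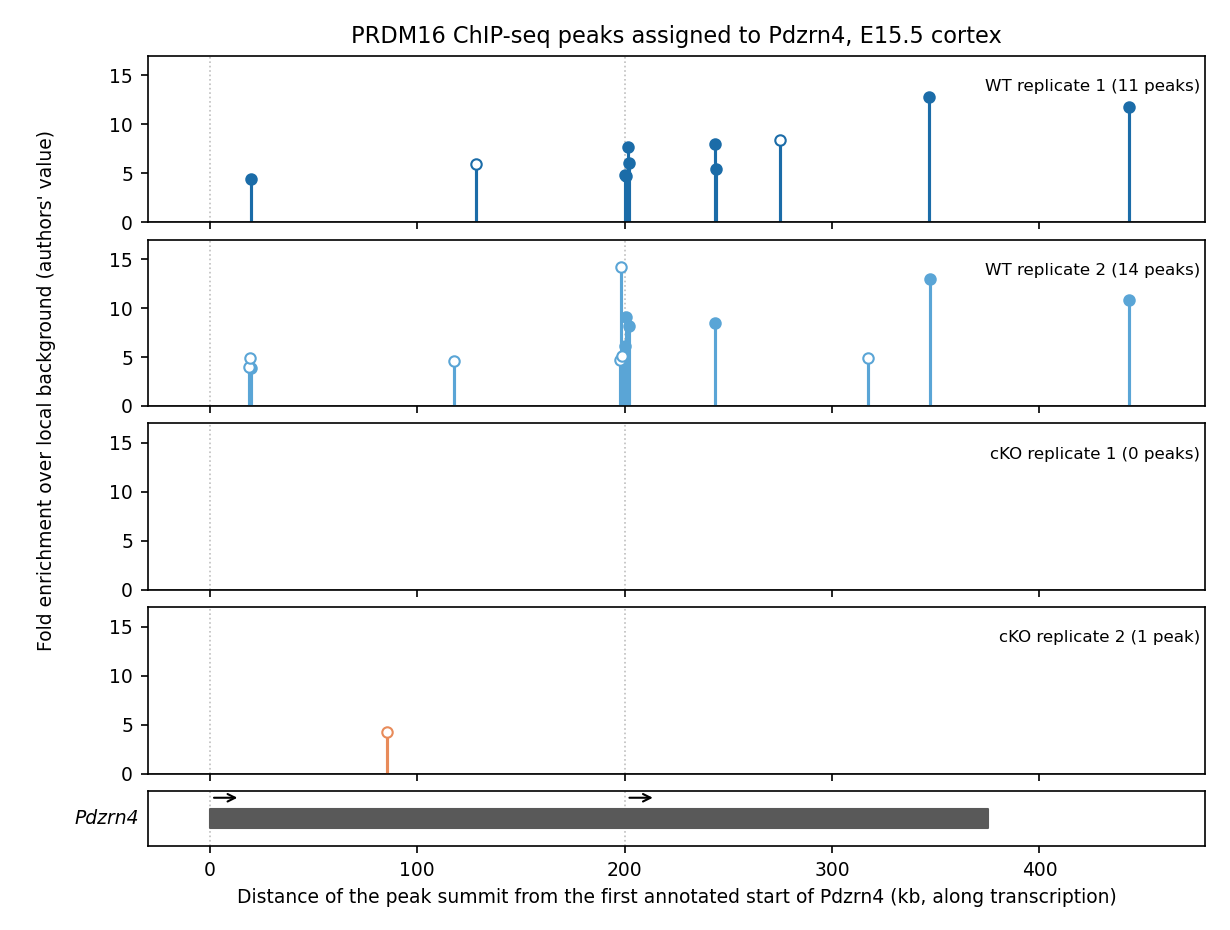
Peaks assigned to Pdzrn4 in each library, by the distance of the summit from the first annotated start (kb, horizontal) and the authors' fold enrichment (vertical). Filled points belong to a region found in both WT lists, open points do not, and dotted lines with arrows mark the annotated starts. WT peaks gather at the second start, 200.3 kb into the gene, and the 1 peak of cKO replicate 2 lies where no WT list has one.

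Pdzrn4 had no peak within 5 kb of its first start in any list. The nearest were at 19.9 kb in WT replicate 1, with a fold of 4.37, and at 18.7 kb in WT replicate 2, with 3.96. At the second annotated start, 200.3 kb into the gene, the WT lists held 4 and 6 peaks within 5 kb and the cKO lists 0 and 0. For comparison, the WT lists held 2 and 2 peaks within 5 kb of the Pdzrn3 start, and the cKO lists 1 and 1.

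The cluster at the second Pdzrn4 start comprised 3 regions of both WT lists. A region from 92597055 to 92597336 lay at the start, with summits 52 and 70 bp after it and folds of 4.85 and 6.11 in WT replicates 1 and 2. The replicate 2 peak covered the start, and that of replicate 1 began after it, at 92597139, and covered 20 bases of the window. The next, from 92597361 to 92597885, had 4.72 and 9.09. The last, from 92598413 to 92599225, had 7.70 and 8.18 and was 1 wide peak in replicate 2 but 2 peaks in replicate 1. Both WT lists overlapped this promoter window and neither cKO list did, which was the case for 1.29% of promoter windows of protein-coding genes.

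The highest Pdzrn4 peak of WT replicate 2 was not in WT replicate 1. It ran from 92594732 to 92595203, before the second start, and reached 14.2, with a pileup of 44 fragments over 2.16. That fold was well above the 3.53 that replicate 1 could call at its median background. In the other direction, WT replicate 1 held a peak from 92671423 to 92671690, with 8.44 and a pileup of 14 over 0.777, that replicate 2 did not hold. The median local background was 0.985 fragments in replicate 1 and 2.32 in replicate 2. The replicates thus differed at some of the higher Pdzrn4 peaks, whereas at Pdzrn3 all 9 peaks of replicate 1 were shared. In all, 2 peaks of replicate 1 and 7 of replicate 2 at Pdzrn4 lay outside shared regions.

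The remaining 4 Pdzrn4 regions were spread along the gene and past it. The highest, from 92743604 to 92744196 at 347 kb, had 12.8 and 13.0 in WT replicates 1 and 2, a mean of 12.9 ± 0.103. A region 68.0 kb beyond the 3′ end, from 92839471 to 92840019, had 11.8 and 10.8 and was the farthest inside the 100 kb limit. Beyond that limit the next peak after the gene was at 175 kb (3.28, in WT replicate 2). Replicates differed little at both regions. A region of 1104 bp from 92640065 to 92641168, at 243 kb, had 8.002 and 8.46, and the lowest, from 92416635 to 92417507 at 19.9 kb, had 4.37 and 3.86.

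The 1 Pdzrn4 peak of the cKO lists, from 92482302 to 92482465 in replicate 2, had a fold of 4.29 and a pileup of 18 over 3.43. Of the peaks in that list 27.2% had a lower fold. It was 64.8 kb from the nearest region of both WT lists and was not in the other cKO list.

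**Figure D3:**
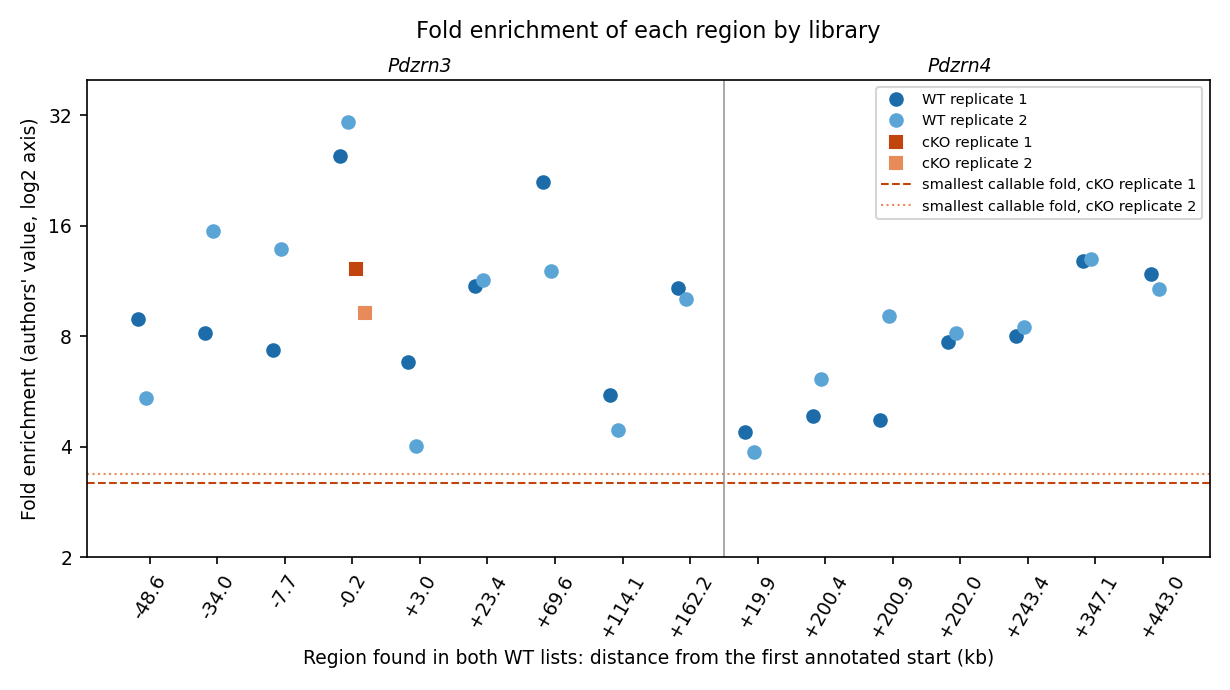
Authors' fold enrichment (log2 axis) of the 16 regions found in both WT lists, 9 at Pdzrn3 and 7 at Pdzrn4, labelled by distance from the first annotated start in kb, with 1 point per library that has a peak there. Horizontal lines show the smallest fold each cKO library could call at its median background, 3.18 and 3.38, and the only cKO points are those at the Pdzrn3 promoter, 12.2 and 9.25.

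A region missing from the cKO lists may still carry a weaker signal there, so WT folds were set beside what the cKO libraries could call. At their median backgrounds of 3.72 and 3.15 fragments, the smallest fold that cKO replicates 1 and 2 could call was 3.18 and 3.38. All 8 Pdzrn3 regions and all 7 Pdzrn4 regions in neither cKO list had both WT folds above both limits. After division of the smaller WT fold by 2, this still held for 5 of the 8 and for 4 of the 7. Over all regions of both WT lists in neither cKO list it held for 43.9%. For the remaining 3 regions at each gene, the smaller WT fold divided by 2 lay below both limits, so a listed cKO fold of that size could have gone uncalled. Because 1 is added to pileup and background, division of the listed fold by 2 is not division of the signal by 2.

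Pdzrn3 and Pdzrn4 were among the genes with many regions. Pdzrn3 had 8 regions of both WT lists in neither cKO list, and 58 of 21887 protein-coding genes had more, with 0.397% at 8 or above. Pdzrn4 had 7, and 87 genes had more, with 0.553% at 7 or above. Both limits are the values of these genes themselves, set after they were seen, so the shares only give their place among all genes. Long genes have more room for peaks, so counts were also set per length. In the body, Pdzrn3 had 2.19 and Pdzrn4 1.5999 regions of both WT lists per 100 kb, against a median of 0.385 over the 990 protein-coding genes of at least 200 kb. Of these 990 genes, 39 were denser than Pdzrn3 and 89 denser than Pdzrn4. The protein-coding neighbours held few peaks: Cntn3, Cntn1 and Gxylt1 each had 1 region of both WT lists and 0 peaks in cKO. Ppp4r2 had 0 peaks in both WT lists, 1 in cKO replicate 1 and 2 in cKO replicate 2. These neighbour counts were not set per length. The bodies of Gxylt1 and Ppp4r2 span only 35.6 and 36.3 kb, and those of Cntn1 and Cntn3 291 and 401 kb.

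Pdzrn3 regions had a higher median fold than regions at large, and Pdzrn4 regions a median near it. The median of the mean WT fold was 10.6 over the 9 Pdzrn3 regions and 7.94 over the 7 Pdzrn4 regions, beside 7.46 over all 10090. WT replicate 2 had the higher fold in 4 of 9 and 5 of 7 regions, beside 59.7% of all regions. These medians are descriptions without a test.

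**Figure D4:**
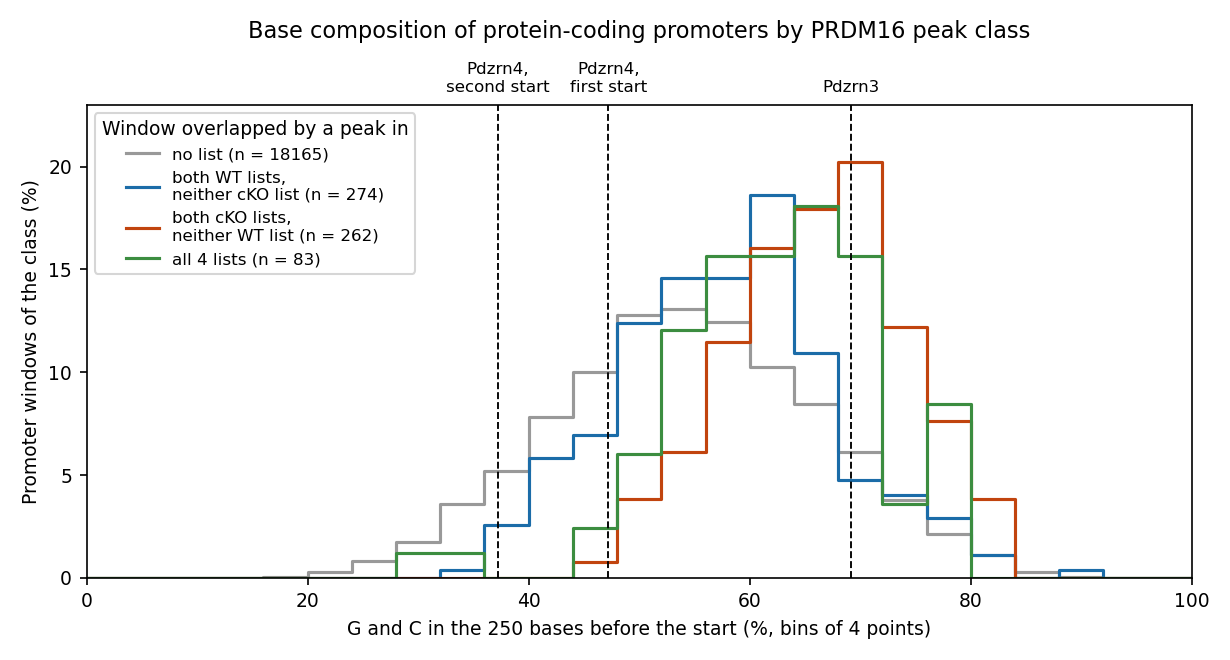
Share of promoter windows (%, vertical) by G and C content of the 250 bases before the start (%, horizontal, bins of 4 points), for windows overlapped by a peak in no list, in both WT lists but neither cKO list, in both cKO lists but no WT list, and in all 4 lists. Dashed lines mark Pdzrn3 at 69.2% and the first and second starts of Pdzrn4 at 47.2% and 37.2%.

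Median base composition was not the same in the classes of promoter to which Pdzrn3 and Pdzrn4 belong. The 83 promoter windows with a peak in all 4 lists, of which Pdzrn3 is one, had a median G and C content of 62.8% (quartiles 57.6 and 69.2). The 274 windows with a peak in both WT lists and neither cKO list, of which the second Pdzrn4 start is one, had 57.6% (50.8 and 63.2). The 262 windows with a peak in both cKO lists but no WT list had 66.0%, and the 18165 in no list had 54.0%. The 2479 windows with a peak in any other combination of lists, which the figure leaves out, had 62.8%, the same median as the windows in all 4 lists. Pdzrn3 thus lay at the upper quartile of its class, and the second Pdzrn4 start, at 37.2%, below the lower quartile of its own. The part of base composition in these peaks was not tested.

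Of 14 motifs searched on both strands in the 250 bases, Pdzrn3 held 2. These were the GC box GGGCGG, with 2 matches, which 42.6% of promoters hold, and the nuclear factor I core TTGGC, also with 2 matches, which 43.0% hold. It held no E-box (CANNTG), which 62.8% of promoters hold. The second Pdzrn4 start held 4 E-boxes, 1 of them of the form CATCTG (12.4% of promoters), and 1 homeobox site TAATTA (4.31%). Of these only the E-box CATGTG, 21 to 16 bases before that start, lay under a peak, which was that of WT replicate 2. The other matches, among them CATCTG and TAATTA, lay between 177 and 120 bases before it and outside the peaks of every list. The first Pdzrn4 start held 1 E-box, 1 nuclear factor I core and 1 SOX site ACAAAG (14.9%). None of the 3 windows held the E-box form CAGCTG, the SOX site ACAATG, or the short form AAGATA and the longer form GACAAGATA of the sites bound by the PRDM16 relative MECOM. None held the cyclic AMP response element TGACGTCA, or the longer NRF1, RFX and CTCF motifs. CAGCTG and CATCTG are forms of CANNTG and overlap it. These are matches of letters and not binding sites.

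The relatives of Pdzrn3 and Pdzrn4 in the LNX family had few peaks. Lnx2, a ubiquitin ligase gene, had 1 peak in each WT list at its start, with folds of 4.25 and 5.27, and none in cKO. Lnx1, known for targeting the Notch regulator Numb, had 1 peak in WT replicate 1 alone. Pdzd4, also called Pdzk4, had 0 in every list. Without Pdzrn3 and Pdzrn4, 1 of the 3 family members thus had a region of both WT lists in neither cKO list, beside 16.4% of all protein-coding genes.

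Genes of partners of Pdzrn3 and of planar polarity Wnt signalling carried such regions in 11 of 23 cases, beside 16.4% of all protein-coding genes, without correction for gene length. More peaks in both WT libraries than in both cKO libraries were found for 9 of the 21 with any peak, beside 35.7%. By the mean of the WT folds at the strongest region, the first was Kif26b, a kinesin gene of the Wnt5a and Ror pathway, with a region in its body on chromosome 1 at 18.0 and 13.9 in WT replicates 1 and 2. Celsr1, a planar polarity cadherin gene, had 10.8 and 19.5 in its body on chromosome 15, above Kif26b in replicate 2. Vangl2, a core planar polarity gene, had 12.1 and 16.5 at 20.3 kb outside the gene on chromosome 1, also above Kif26b in replicate 2. All 3 lay below the 24.8 and 30.7 of the Pdzrn3 promoter. The cKO lists held a peak for 14 of the 23 genes, beside 20.2% of all genes.

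Other genes had a similar set of strongest folds. Likeness was the Euclidean distance between the log2 of the strongest fold in each of the 4 libraries, among genes with a peak in the same libraries. For Pdzrn3, among 887 such genes, the nearest were Tprg (0.33), Nrp1, a neuropilin gene (0.56), Polg, the mitochondrial DNA polymerase gene (0.57), Rab39b (0.63) and Akain1 (0.67). Tprg had 28.7, 29.0, 14.3 and 8.82 in WT replicates 1 and 2 and cKO replicates 1 and 2. It had 2 regions of both WT lists in neither cKO list, against 8 at Pdzrn3. For Pdzrn4, among 327 genes, the nearest were Fsip1 (0.10), Armc2 (0.11), Btbd9 (0.16), Camk2d, a calcium/calmodulin kinase gene (0.16), and Alk, a receptor tyrosine kinase gene (0.16). Alk had 7 regions of both WT lists in neither cKO list, as many as Pdzrn4.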

How the data were processed

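The analysis rests on 1 peak list for each of 4 PRDM16 ChIP libraries; inputs and histone marks were not analysed here. Per the submitters' processing notes, reads were handled with FastQC, cutadapt and Bowtie2 2.2.8 on mm10, and MACS2 2.1.1 is named for peaks, without settings. The deposited lists give, per library and not on pooled replicates, each peak's position and summit, a fold enrichment over the local background (a ratio), −log10 of the p-value and q-value, and a score that is 10 times the latter; summit offsets are other values. All folds in the text are the authors' and only describe and rank peaks.

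Only assembled nuclear chromosomes were kept, which left out 12, 14, 37 and 19 lines. Gene positions (21887 protein-coding genes), starts, strands and promoter sequences came from RefSeq GRCm38.p6 tables, in which both genes were matched. A genome sequence was not used here. Lists were compared by overlap of at least 1 bp with Python 3.11.15, numpy 2.4.6, pandas 2.3.3 and scipy 1.17.1; a region of both WT lists is the union of overlapping peaks, valued by its strongest peak per list. Lists hold no read totals. The pileup and local background were solved from fold and p-value, and of 2000 summits tested per library 99.8% to 99.95% gave a whole pileup within 0.0001 of the listed −log10 p. Peak counts per library were compared by an exact permutation test. Overlap, assignment and pileup steps were tested on simulated data.

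Named genes were the 2 members, their nearest protein-coding neighbours, Prdm16, the LNX family, a list of Pdzrn3 partners and planar polarity genes with its 3 highest members, and the 5 genes nearest in strongest fold. Members and lists were chosen with earlier results of these data known. Alternatives were stricter peak thresholds, narrower assignment, equal list lengths, a stricter overlap, each replicate left out, and the replicate number as a block.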

Additional observations from a re-analysis of the deposited data

How the results depend on the processing

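WT exceeded cKO in the mean number of peaks under every alternative run, for both genes. The difference was 8 to 17 peaks for Pdzrn3 and 10.5 to 13.5 for Pdzrn4 with 1 replicate left out. With the replicate number as a block the differences stayed at 12.5 and 12, with p = 0.5 by exact permutation within pairs, the lowest possible with 2 pairs; nothing in the labels says that the numbers pair libraries. Regions of both WT lists numbered 5 for Pdzrn3 in the gene body alone, all 5 in neither cKO list. With lists of equal length there were 4 at Pdzrn3, 3 of them in neither cKO list, and 1 at Pdzrn4, which was in neither. With 1 replicate left out, regions numbered 9 to 18 for Pdzrn3, 8 to 17 of them in neither cKO list, and 7 to 14 for Pdzrn4, all in neither. The higher ends come without WT replicate 1, when the longer list stands alone. Without WT replicate 2 Pdzrn4 had 11. A q-value of at most 0.01, a fold of at least 4, a limit of 50 kb and an overlap of 50% of the shorter peak left each of these counts within 1.5 times. The lists give no depth beyond the solved pileups, and 2 libraries per genotype limit an exact permutation test to p = 0.333.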
